A study of Drosophila melanogaster with 9 samples.

Results

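The genes described here are the 149 long noncoding RNA genes that were expressed in Drosophila S2R+ cells grown with serum or with fly extract. They were chosen by their level in these libraries: of the 17562 genes counted, 2404 have a FlyBase symbol that begins with lncRNA: or asRNA:, and a gene was taken when it had 2 or more counts per 1000000 counts (CPM) of its library in each of the 3 replicates of 1 medium or more. Of the 149 genes, 102 have the prefix lncRNA: and 47 have the prefix asRNA:, which FlyBase gives to transcripts that run antisense to another gene. M3 + 10% FEx (10% FEx below) is Shields and Sang M3 medium with an extract of adult flies and without serum, bactopeptone or yeast extract, and M3 + 2.5% FEx (2.5% FEx) holds less of the extract. The control medium MB10 is M3 with bactopeptone, yeast extract and 10% fetal bovine serum, and each of the 3 media has 3 libraries. S2R+ is a line of embryonic origin, here labelled as Oregon-R. A single line was adapted to each FEx medium, that of 2.5% FEx out of that of 10% FEx, and a difference between lines and an effect of the medium cannot be told apart, nor can the effects of the FEx, the serum, the bactopeptone and the yeast extract. The labels say that cells were collected in triplicate and do not say that the replicates were separate cultures, so p-values measure the spread between these samples, which may be technical.

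Long noncoding RNAs are transcripts of messenger RNA size that carry no long open reading frame. Some act as RNAs: in Drosophila, roX1 and roX2 help the MSL complex to coat the X chromosome in male cells, and Hsromega builds nuclear speckles with RNA-binding proteins. Others are the primary transcripts of microRNAs or carry small nucleolar RNAs in their introns, and others run antisense to or share a promoter region with a coding gene. Most have no known role. The libraries were made from poly(A)-selected RNA with a kit that keeps the strand.

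Library totals ran from 20694827 to 29076620 counts, so that 3 counts stood for 0.106 to 0.151 CPM. The 149 genes together took 0.582 to 0.669% of the counts in 10% FEx, 0.622 to 0.680% in 2.5% FEx and 0.621 to 0.767% in MB10. Of the 9 plasmatocyte (blood cell) markers that could be tested, 1 was higher and 5 were lower in 10% FEx than in MB10 by an edgeR adjusted p under 0.05. Of all genes tested, 25.5% were higher and 27.6% lower. In 2.5% FEx 0 markers were higher and 2 were lower, beside 22.0 and 22.2% of all genes tested. The summed level of the 10 markers listed was 1302 to 1362 CPM in 10% FEx, 1556 to 1577 CPM in 2.5% FEx and 1825 to 2011 CPM in MB10, with NimC1 near 0. Of 12 transcripts of adult tissues that FEx could carry into the culture, 11 averaged 0.4 CPM or less in every medium, and the other, TpnC4, had 51.3 to 55.1 CPM in 10% FEx, 70.2 to 87.2 CPM in 2.5% FEx and 79.8 to 85.0 CPM in MB10. Markers of lamellocytes and crystal cells, other blood cell types, had higher sums in both FEx media: for atilla and ItgaPS4, 43.5 to 46.2 CPM in 10% FEx, 13.4 to 16.7 CPM in 2.5% FEx and 2.61 to 3.84 CPM in MB10, and for lz, PPO1 and PPO2, 12.6 to 14.5 CPM in 10% FEx, 5.10 to 5.88 CPM in 2.5% FEx and 2.20 to 4.47 CPM in MB10. ItgaPS4 made up most of the lamellocyte sums, with means of 43.0 CPM in 10% FEx, 14.4 CPM in 2.5% FEx and 3.04 CPM in MB10. Each of these genes but PPO2 was higher in both FEx media by the adjusted p. Some of these calls rest on few counts: atilla had 5, 6 and 3 counts in 2.5% FEx and 1, 0 and 0 in MB10, and lz had 0, 1 and 0 in MB10. PPO2 had means of 3.41 CPM in 10% FEx, 2.15 CPM in 2.5% FEx and 2.97 CPM in MB10. It was called in neither comparison with MB10 (edgeR adjusted p = 0.45 and 0.15). The part of these cell type differences in the values of the long noncoding RNAs was not tested, and fewer cells of a type and less RNA per cell cannot be told apart in bulk samples.

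Of the 149 genes, 128 met the level rule in 10% FEx, 130 in 2.5% FEx and 133 in MB10, and 116 met it in every medium. Another 13 met it in MB10 only, 6 in both FEx media but not in MB10, 5 in 10% FEx only and 5 in 2.5% FEx only, while 3 met it in 2.5% FEx and MB10 and 1 in 10% FEx and MB10. The genes just inside the rule at the library that decided were CR44023 (2.01 CPM), CR44886, asRNA:CR45009 and CR43656 (each 2.06 CPM), and those just outside were CR45082, asRNA:CR44375 and CR45433 (each 1.98 CPM). Of the 2404 rows, 1268 had at least 1 count in the 9 libraries. All 149 genes passed the expression filter of the test. Levels below are CPM normalized by edgeR's TMM method, unless called CPM of the rule.

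MB10 replicate 3 and 2.5% FEx replicate 1 stood apart for these genes. MB10 replicate 3 was the lowest of the 3 MB10 libraries for 92 of the 149 genes, and for 40.2% of all genes tested. Within 2.5% FEx, replicate 1 was lowest for 91, and for 36.9% of all genes tested. The median coefficient of variation was 8.43% in 10% FEx, 10.5% in 2.5% FEx and 12.9% in MB10, and over all genes tested it was 6.18% in 10% FEx, 5.68% in 2.5% FEx and 10.2% in MB10. The counts of called genes are also given without MB10 replicate 3, and some of them without 2.5% FEx replicate 1.

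By share of counts, a few of the 149 genes were abundant. Their median level over the 9 libraries was 6.24 CPM, against 38.6 CPM for the 8705 genes tested, with 12 genes at 100 CPM or more, 55 at 10 CPM or more and 65 under 5 CPM. The 8 most abundant genes held 64.5 to 70.2% of the counts of all 149 in each library. The highest was CR42862 (chr3L:224106-230964 in the BDGP6.54 annotation), a gene of 3 exons that alone held 24.5 to 35.4% of these counts. It had 1727, 1909.8 and 2217 CPM in 10% FEx, 1551, 1522 and 1684 CPM in 2.5% FEx and 2097, 2663 and 1954 CPM in MB10. The libraries of 2.5% FEx lay below those of MB10, with a log2 fold change of -0.50 ± 0.13 (SE, edgeR adjusted p = 0.0081), and those of 10% FEx overlapped MB10 (-0.20 ± 0.13, adjusted p = 0.21). Per kilobase of exon, the median was 6.64 RPKM for the 149 genes, against 17.9 RPKM for the 8663 genes tested that have an exon length, and the order changed: CR32368, a gene with a single exon of 410 bases, led with 627 RPKM in 10% FEx, 1066 RPKM in 2.5% FEx and 1949 RPKM in MB10, followed over the 9 libraries by CR42491, CR42862, CR45184 and CR45334, with means of 408, 351, 240.0 and 156 RPKM.

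Of the other abundant genes, 4 hold genes of small RNAs. CR43334 (chr3L:628435-643900) spans the gene of bantam, a microRNA that promotes tissue growth and restrains cell death. It had 517, 492 and 509.8 CPM in 10% FEx, 487, 508 and 562 CPM in 2.5% FEx and 423, 456 and 339 CPM in MB10, so that both FEx media lay above MB10 without overlap, by log2 fold changes of 0.32 ± 0.10 (adjusted p = 0.019) and 0.36 ± 0.10 (adjusted p = 0.014). CR43459 (chr3R:10093761-10101356) holds mir-277 and mir-34, a cluster known for its part in ageing and metabolism of adult flies. It had 199, 183 and 200.3 CPM in 10% FEx, 248, 245 and 275 CPM in 2.5% FEx and 166, 210.2 and 112 CPM in MB10, and 2.5% FEx was higher than MB10 (0.65 ± 0.16, adjusted p = 0.0074), while for 10% FEx the value was 0.25 ± 0.16 (adjusted p = 0.21). MB10 replicate 3 was the lowest library for both. The calls of CR43334 were lost without 10% FEx replicate 1 or 3 (0.30 and 0.32, adjusted p = 0.056 and 0.051) or without 2.5% FEx replicate 3 (0.31, adjusted p = 0.064), and without MB10 replicate 2 CR43459 was also called in 10% FEx (0.50, adjusted p = 0.0059). CR45184, which holds 5 snoRNA genes, lies with 94.7% of its exon bases inside exons of Sf3b3, a splicing factor subunit, and had 684, 701 and 675 CPM in 10% FEx, 634, 631 and 632 CPM in 2.5% FEx and 577, 607 and 579.8 CPM in MB10. It was higher in 10% FEx than in MB10 (0.22 ± 0.06, adjusted p = 0.011), as was Sf3b3 itself (0.37, adjusted p = 9.4e-04). CR42491, which holds a snoRNA gene and shares 50.5% of its exon bases with the ribosomal protein gene RpL22, had 245, 317 and 345 CPM in 10% FEx, 281, 282 and 264 CPM in 2.5% FEx and 318, 297 and 394 CPM in MB10, with no call in either comparison with MB10, although 2.5% FEx was called lower without MB10 replicate 2 (-0.35, adjusted p = 0.032), without 10% FEx replicate 1 (-0.29, adjusted p = 0.040) and over all genes with at least 1 count (-0.29, adjusted p = 0.027).

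CR45334 (chr2L:21929064-21931698) shares no exon bases with another gene and had 205, 207 and 218 CPM in 10% FEx, 235, 256 and 274 CPM in 2.5% FEx and 205, 209.8 and 175 CPM in MB10. Its log2 fold change was 0.38 ± 0.08 in 2.5% FEx (adjusted p = 0.003) and 0.10 ± 0.08 in 10% FEx (adjusted p = 0.34). CR44999 shares 91.8% of its exon bases with exons of Myc, the growth regulator, on the same strand. It had 141, 137 and 132 CPM in 10% FEx, 138, 136 and 138 CPM in 2.5% FEx and 89.9, 119.8 and 73.2 CPM in MB10, higher than MB10 in both FEx media (0.54 ± 0.13 and 0.54 ± 0.13, adjusted p = 0.0046 and 0.0061), and Myc had 0.28 (adjusted p = 0.052) and 0.41 (adjusted p = 0.011). Counts of genes that share exon bases on 1 strand cannot be told apart here, and these values are uncertain for that reason.

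**Figure D1:**
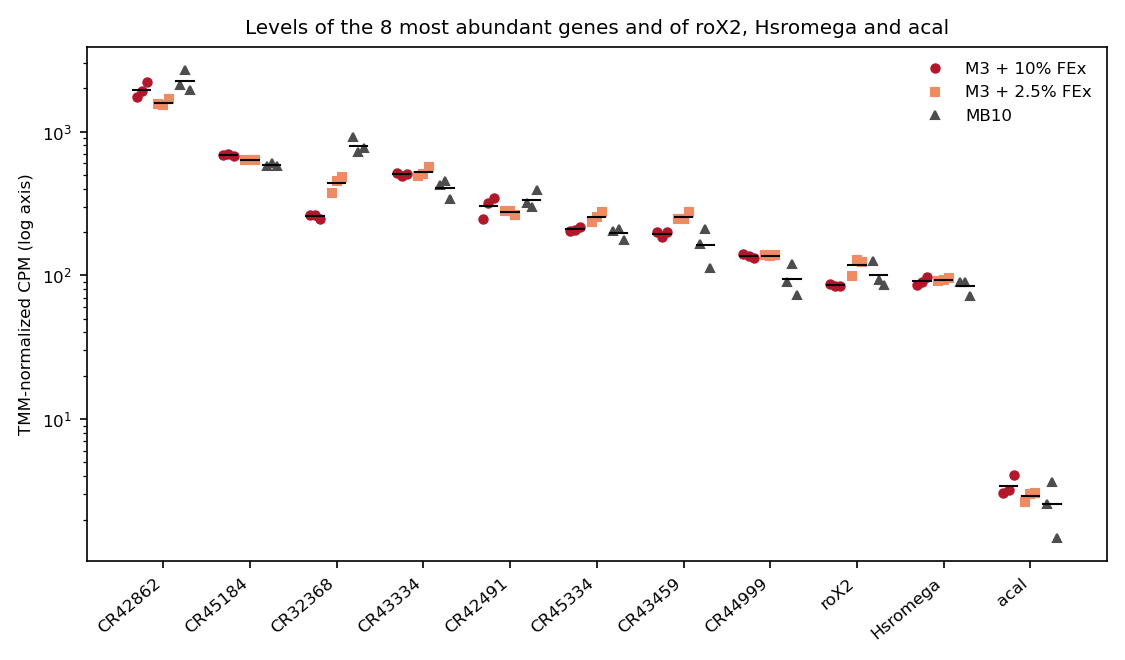
Level of the 8 most abundant long noncoding RNA genes and of roX2, Hsromega and acal in each of the 9 libraries, in TMM-normalized CPM on a log axis. Points are libraries and black lines the means of 3. CR42862 was highest in every library, CR32368 had 246 to 263 CPM in 10% FEx, 375 to 482 CPM in 2.5% FEx and 717 to 915 CPM in MB10, and roX2 and Hsromega lay at 72.2 to 128 CPM in all 9 libraries.

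Of 26 names listed as characterised noncoding RNAs, 13 matched a symbol and 3 of them, roX2, Hsromega and acal, met the rule. roX2 (chrX:11579065-11580432) had 86.5, 84.9 and 84.4 CPM in 10% FEx, 98.9, 128 and 124 CPM in 2.5% FEx and 125, 92.5 and 86.1 CPM in MB10. Both FEx media overlapped MB10, and neither difference passed the test (-0.25 ± 0.13, adjusted p = 0.13, and 0.21 ± 0.13, adjusted p = 0.21), while 10% FEx lay below 2.5% FEx (-0.46 ± 0.13, adjusted p = 0.026). The first difference was -0.35 (adjusted p = 0.018) without MB10 replicate 3 and -0.25 (adjusted p = 0.047) over all genes with at least 1 count, and the other was 0.40 (adjusted p = 0.013) without MB10 replicate 1. Its partner roX1, which acts with roX2 in flies, was near 0, with 0 to 0.302 CPM over the 9 libraries, and was not tested. Of the 6 dosage compensation proteins listed, msl-1 was higher in 10% FEx (0.31 ± 0.08, adjusted p = 0.0061) and msl-3 was lower (-0.33 ± 0.07, adjusted p = 0.003). In 2.5% FEx, msl-1 (0.34 ± 0.08, adjusted p = 0.0054) and msl-2 (0.26 ± 0.07, adjusted p = 0.0081) were higher, and no listed protein gene was called between the FEx media or passed a log2 fold change of 1. msl-2, whose protein is made in male cells, had 43.5 to 59.0 CPM over the 9 libraries.

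Hsromega (chr3R:21296127-21317836), whose exon of 21710 bases is the longest of the 149 genes and holds mir-4951, had 85.6, 90.0 and 97.9 CPM in 10% FEx, 90.6, 92.4 and 96.1 CPM in 2.5% FEx and 89.3, 89.8 and 72.2 CPM in MB10. Its log2 fold changes were 0.12 ± 0.09 (adjusted p = 0.26) and 0.15 ± 0.09 (adjusted p = 0.18), so that no difference from MB10 passed the test. Of the 6 proteins listed for omega speckles, Saf-B was higher in both FEx media (0.29 ± 0.07 and 0.22 ± 0.07), and in 10% FEx Hrb87F (-0.31 ± 0.06), nonA (-0.18 ± 0.07) and Hsp83 (-0.46 ± 0.08) were lower, with adjusted p = 0.0017, 0.046 and 6.5e-04. acal (chr2R:10544925-10547260), known for a part in JNK signalling in the embryo, met the rule in both FEx media only and had 3.05, 3.20 and 4.05 CPM in 10% FEx, 2.66, 3.00 and 3.07 CPM in 2.5% FEx and 2.56, 3.63 and 1.49 CPM in MB10. The media overlapped, and MB10 replicate 3 lay lowest, so that its fitted value in 2.5% FEx was 0.18 with that library and -0.10 without it.

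Genes of RNA decay, which acts on many noncoding transcripts, are set beside all genes tested, of which 25.5% were higher and 27.6% lower in 10% FEx by the adjusted p, and 22.0% higher and 22.2% lower in 2.5% FEx. Of 10 subunits and cofactors of the RNA exosome, the nuclear machine that trims and degrades RNA, 1 was higher (the helicase Mtr4, 0.37 ± 0.06, adjusted p = 2.6e-04) and 3 were lower in 10% FEx (Mtr3, Csl4 and Rrp46, -0.35, -0.37 and -0.29). In 2.5% FEx 1 was higher (Mtr4, 0.17) and 1 was lower (Mtr3, -0.29). Of 5 nonsense-mediated decay factors matched, 3 were higher in 10% FEx (Upf2, Smg5 and Upf1, 0.39, 0.31 and 0.21) and 2 in 2.5% FEx (Upf2 and Upf1, 0.26 and 0.19), with 0 lower in either. None of these genes passed a log2 fold change of 1.

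The comparison with MB10 asked which genes changed in cells adapted to serum-free medium. In both FEx media, CR32582 and the antisense genes asRNA:CR45126 and asRNA:CR44029 were lower than in MB10, and in 10% FEx the abundant CR32368 was 3.11-fold lower and CR44779 2.84-fold higher. A gene was called DE at an adjusted p under 0.05 (edgeR quasi-likelihood F test, two-sided, Benjamini-Hochberg over 8705 genes) with a log2 fold change beyond 1 in either direction. In 10% FEx, 9 of the 149 genes were DE and higher and 12 were DE and lower than in MB10, where 7.34 and 3.63% of all genes tested were. In 2.5% FEx 10 were DE and higher and 6 were lower, where 5.59 and 2.93% of all genes tested were. These counts include 33 genes that met the rule in only some media, and whose difference the rule had a part in choosing. Of the 116 that met it in every medium, 2 were DE and higher and 7 lower in 10% FEx, and 2 were higher and 3 lower in 2.5% FEx. Without MB10 replicate 3, 7 of the 149 genes were DE and higher and 13 lower in 10% FEx, and 9 were higher and 7 lower in 2.5% FEx. Without 2.5% FEx replicate 1, 11 were DE and higher and 5 lower in 2.5% FEx.

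By the adjusted p alone, 32 genes were higher and 50 lower in 10% FEx, beside 25.5 and 27.6% of all genes tested, and 30 were higher and 44 lower in 2.5% FEx, beside 22.0 and 22.2%. The median log2 fold change of the 149 genes was -0.17 in 10% FEx and -0.05 in 2.5% FEx, against -0.04 for all genes tested in each comparison. Both comparisons share the MB10 libraries. In all, 6 genes were DE and higher and 6 DE and lower in both FEx media, while 3 were higher and 6 lower in 10% FEx alone and 4 were higher in 2.5% FEx alone. Shared calls were not counted over all genes tested, so this overlap is a description and no trait of these genes. Between the FEx media 2 were DE and higher and 4 DE and lower in 10% FEx, where 2.42 and 1.05% of all genes tested were, and 15 and 23 by the adjusted p alone, where 10.5 and 11.3% were.

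Genes that run antisense to another gene were called lower more than higher. Of the 47 genes with the prefix asRNA:, 0 were DE and higher in either FEx medium, where 7.34 and 5.59% of all genes tested were. In 10% FEx 8 were DE and lower and in 2.5% FEx 4, where 3.63 and 2.93% of all genes tested were. By the adjusted p alone, 6 were higher and 21 lower in 10% FEx, beside 25.5 and 27.6% of all genes tested. In 2.5% FEx 2 were higher and 22 lower, beside 22.0 and 22.2%, and the medians were -0.32 in both media. Of the 102 genes with the prefix lncRNA:, 26 were higher and 29 lower in 10% FEx (median -0.06), and 28 were higher and 22 lower in 2.5% FEx (median 0.09). Among genes that met the rule in every medium, 3 of 33 asRNA: genes were higher and 12 lower in 10% FEx and 2 were higher and 12 lower in 2.5% FEx. Of 83 such lncRNA: genes, 17 were higher and 24 lower in 10% FEx, and 19 were higher and 18 lower in 2.5% FEx. Of the 33 asRNA: genes, 4 were DE and lower in 10% FEx and 2 in 2.5% FEx. Those in 10% FEx include asRNA:CR45126, asRNA:CR44029 and asRNA:CR44030 of chromosome 4, where 51.1% of all genes tested were lower by the adjusted p. This split by prefix was chosen after the values were seen, and the difference between prefixes was not tested. Without MB10 replicate 3, 5 asRNA: genes were higher and 24 lower in 10% FEx, and 2 were higher and 24 lower in 2.5% FEx.

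**Figure D2:**
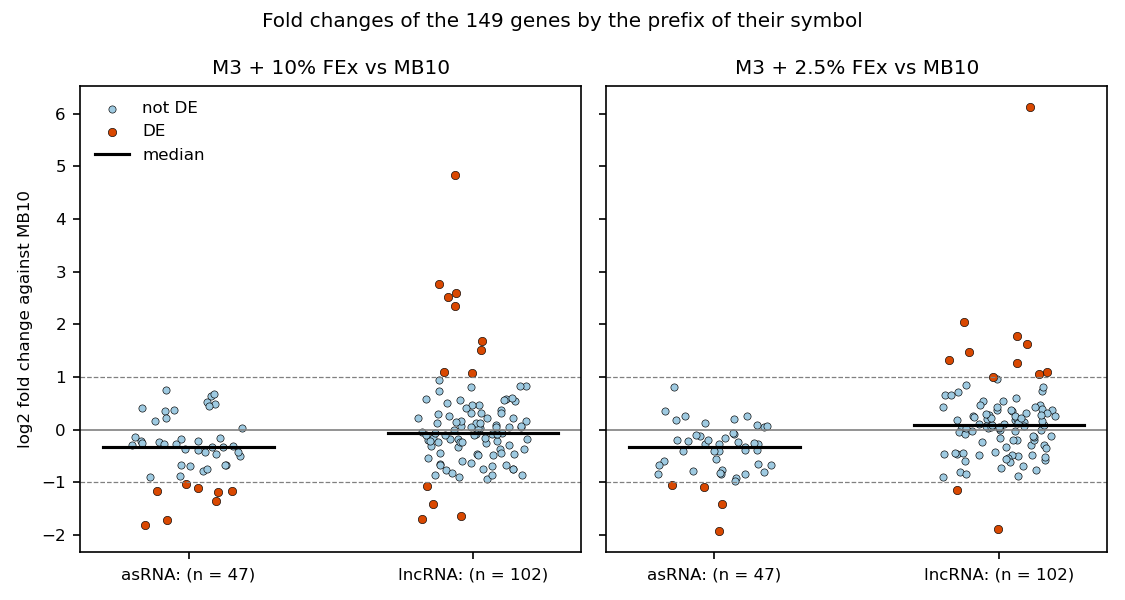
Log2 fold change against MB10 of the 47 asRNA: and 102 lncRNA: genes in 10% FEx (left) and 2.5% FEx (right). Each point is a gene, orange where it was DE, black lines are medians and dashed lines mark a log2 fold change of 1 and -1. No asRNA: gene lies above 1 in either panel, and their medians are -0.32 in both.

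CR32368 (chr3L:7915437-7915846) was the most abundant of the genes that met the rule in every medium and were DE and lower. It starts 317 bases from the start of Tmem43, head to head with it, and had 263, 262 and 246 CPM in 10% FEx, 375, 454 and 482 CPM in 2.5% FEx and 915, 717 and 766 CPM in MB10. The 3 media did not overlap, and MB10 was highest. The log2 fold change was -1.64 ± 0.11 in 10% FEx (adjusted p = 1.7e-07), -0.87 ± 0.11 in 2.5% FEx (adjusted p = 5.7e-05) and -0.77 ± 0.11 between them (adjusted p = 4.5e-04). Tmem43 had 0.07 ± 0.15 and -0.17 ± 0.15 (adjusted p = 0.71 and 0.37). CR32582 (chrX:15835601-15836923) is likewise head to head, at 111 bases, with Chc, the clathrin heavy chain, and had 6.84, 6.85 and 4.63 CPM in 10% FEx, 8.79, 9.83 and 8.59 CPM in 2.5% FEx and 22.8, 17.1 and 20.3 CPM in MB10. It was 3.26-fold lower in 10% FEx (-1.70 ± 0.15, adjusted p = 1.9e-06) and 2.21-fold lower in 2.5% FEx (-1.14 ± 0.14, adjusted p = 6.1e-05), while Chc was higher in both (0.27 and 0.30, adjusted p = 0.022 and 0.018).

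Of the 8 genes on chromosome 4, a small and largely heterochromatic chromosome, 3 were DE and lower in 10% FEx. asRNA:CR45126 (chr4:459768-461413), opposite to Taf3, a subunit of the general transcription factor TFIID, had 5.24, 4.19 and 5.83 CPM in 10% FEx, 4.06, 4.98 and 5.06 CPM in 2.5% FEx and 19.8, 18.7 and 15.3 CPM in MB10. Its log2 fold change was -1.81 ± 0.14 in 10% FEx (adjusted p = 6.4e-07) and -1.93 ± 0.14 in 2.5% FEx (adjusted p = 5.2e-07), and that of Taf3 -0.39 ± 0.14 and -0.50 ± 0.14 (adjusted p = 0.034 and 0.012). asRNA:CR44029 (chr4:879374-884752), opposite to the synaptic vesicle gene unc-13, had 11.2, 11.4 and 15.4 CPM in 10% FEx, 10.9, 12.7 and 15.5 CPM in 2.5% FEx and 28.1, 33.3 and 19.9 CPM in MB10, with -1.11 ± 0.19 and -1.05 ± 0.19 (adjusted p = 4.4e-04 and 8.9e-04), which were -0.91 and -0.86 without MB10 replicate 2, and -0.94 in 2.5% FEx without its replicate 1, while unc-13 had 0.17 ± 0.11 and -0.01 ± 0.11 (adjusted p = 0.2 and 0.96). asRNA:CR44030 (chr4:959675-962692), opposite to fuss, a SMAD-binding Ski/Sno family gene, had 3.26, 2.97 and 3.04 CPM in 10% FEx, 5.91, 6.62 and 6.64 CPM in 2.5% FEx and 8.95, 8.51 and 6.49 CPM in MB10. It was lower in 10% FEx (-1.36 ± 0.14, adjusted p = 7.1e-06, against -0.32 ± 0.13 in 2.5% FEx, adjusted p = 0.059), and the FEx media differed (-1.04 ± 0.14, adjusted p = 3.2e-04).

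Other genes of chromosome 4 were lower as well. Of its 88 genes tested, 51.1% were lower in 10% FEx and 47.7% in 2.5% FEx by the adjusted p, with medians of -0.39 and -0.32, while 7.95 and 5.68% were higher. Of its 8 long noncoding RNA genes 5 were lower and 0 higher in each, with medians of -0.80 and -0.77, so that the fall was not particular to them. Chromosome 4 was picked out after the values were seen. It also held the largest share of expressed rows, 8 of 23 or 34.8%, followed by the X chromosome with 37 of 304 or 12.2%, while 3.13% of the rows on 2L, 4.95% on 3L, 5.57% on 3R and 7.33% on 2R were expressed.

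The remaining genes that met the rule in every medium and were DE and lower were CR43963 and asRNA:CR42254, both in 10% FEx. CR43963 had 3.40, 2.97 and 2.94 CPM in 10% FEx, 4.44, 3.66 and 4.85 CPM in 2.5% FEx and 6.89, 6.57 and 6.27 CPM in MB10 (-1.07 ± 0.13, adjusted p = 2.9e-05), and was lower by the adjusted p in 2.5% FEx (-0.61, adjusted p = 0.0022). It lies within the span of Smr, a corepressor of nuclear receptors, on the same strand with 3.6% of its exon bases shared, and Smr was higher (0.47, adjusted p = 1.3e-04). asRNA:CR42254 had 7.62, 6.62 and 6.70 CPM in 10% FEx, 8.07, 9.34 and 9.96 CPM in 2.5% FEx and 15.6, 14.6 and 13.0 CPM in MB10 (-1.04 ± 0.11, adjusted p = 1.2e-05), with -0.65 in 2.5% FEx (adjusted p = 5.3e-04), and BEAF-32, the insulator protein gene it runs opposite to, was lower in 10% FEx (-0.36 ± 0.06, adjusted p = 6.4e-04). Without 10% FEx replicate 2 or MB10 replicate 1, the value of asRNA:CR42254 was -0.998 or -0.962, short of the DE threshold. These 2 genes were named after their values were seen, as were CR44898, CR44619 and CR40469 below.

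CR44779 on the X chromosome (chrX:1047242-1088866) had the highest log2 fold change in 10% FEx of the genes that met the rule in every medium. It had 86.7, 87.7 and 99.5 CPM in 10% FEx, 51.6, 53.0 and 55.7 CPM in 2.5% FEx and 29.1, 37.9 and 29.4 CPM in MB10, in 3 ranges that did not overlap, with 10% FEx highest. The level was 2.84-fold that of MB10 in 10% FEx (1.51 ± 0.10, adjusted p = 1.7e-07) and 1.66-fold in 2.5% FEx (0.73 ± 0.10, adjusted p = 1.3e-04), and the FEx media differed by 0.77 ± 0.10 (adjusted p = 2.0e-04). CR44898 has 99.8% of its exon bases in exons of robo2, an axon guidance receptor gene, on the same strand, and had 18.1, 22.7 and 21.9 CPM in 10% FEx, 15.0, 17.0 and 20.6 CPM in 2.5% FEx and 11.0, 10.4 and 8.39 CPM in MB10. Its log2 fold changes were 1.07 ± 0.14 and 0.82 ± 0.14 (adjusted p = 6.1e-05 and 7.3e-04), beside 1.43 ± 0.07 and 0.94 ± 0.07 for robo2, with which it may share reads. The value of CR44898 in 10% FEx was 0.96 without MB10 replicate 3. CR40469 had 9.53, 8.79 and 8.63 CPM in 10% FEx, 11.5, 14.5 and 13.5 CPM in 2.5% FEx and 8.14, 6.18 and 5.37 CPM in MB10 and CR44619 had 5.99, 6.89 and 6.56 CPM in 10% FEx, 7.90, 6.21 and 8.55 CPM in 2.5% FEx and 3.52, 3.97 and 3.43 CPM in MB10. Both were DE in 2.5% FEx (1.01 ± 0.14 and 1.05 ± 0.14, adjusted p = 1.6e-04 and 9.9e-05). That of CR40469 was 0.94 without 2.5% FEx replicate 2, 0.99 without MB10 replicate 2 and 0.89 without MB10 replicate 3, and that of CR44619 was 0.97 without 2.5% FEx replicate 3, each short of the DE threshold.

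A noncoding gene of the 87C heat-shock locus differed in sign between the FEx media. alphagamma-element:CR32865 (chr3R:12475336-12478267) belongs to repeated elements known for heat-induced transcription between Hsp70 genes, and its nearest coding gene in the annotation is Hsp70Ba at 7560 bases. It had 8.82, 8.42 and 7.76 CPM in 10% FEx, 22.1, 25.1 and 28.7 CPM in 2.5% FEx and 14.4, 15.4 and 12.2 CPM in MB10. 2.5% FEx was highest and 10% FEx lowest, with no overlap between media. Its reads may be split between repeated copies, since the setting for multi-mapping reads is not given, and the values are uncertain for that reason. Against MB10 its log2 fold change stood at -0.75 ± 0.12 in 10% FEx (adjusted p = 3.3e-04) and 0.85 ± 0.11 in 2.5% FEx (adjusted p = 1.1e-04), and -1.60 ± 0.12 between the FEx media (adjusted p = 3.4e-06). Hsp70Ba, a member of a family of near-identical chaperone genes whose reads may be split between copies, had 10.5, 6.67 and 8.39 CPM in 10% FEx, 66.3, 46.0 and 58.5 CPM in 2.5% FEx and 32.4, 50.8 and 58.5 CPM in MB10. Its log2 fold change was -2.46 ± 0.23 in 10% FEx (adjusted p = 3.0e-06) and 0.27 ± 0.20 in 2.5% FEx (adjusted p = 0.3).

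**Figure D3:**
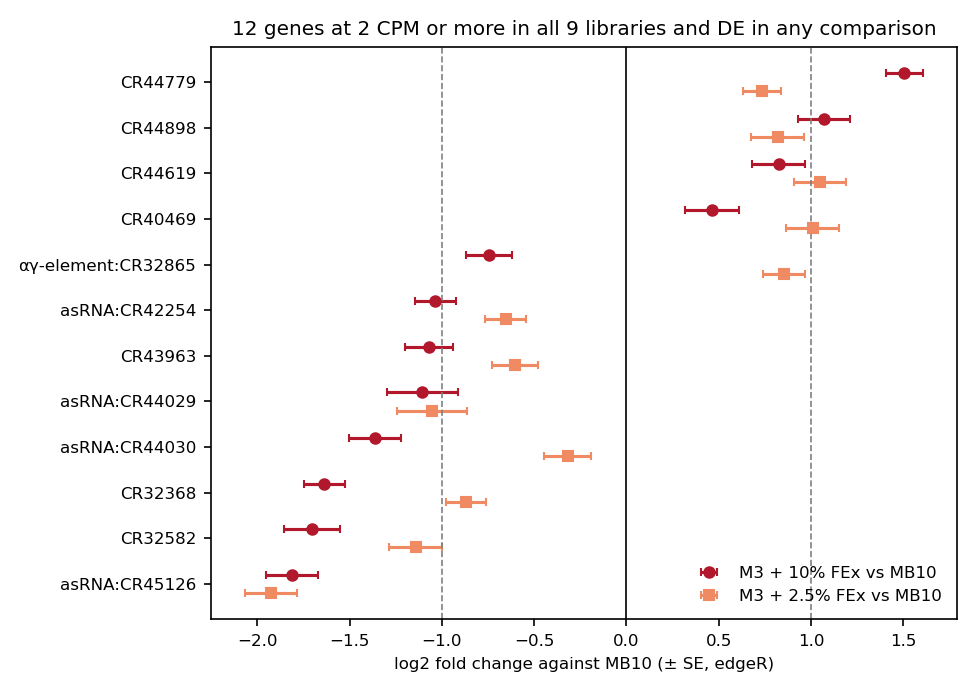
Log2 fold change against MB10, with its SE from edgeR, of the 12 long noncoding RNA genes that met the rule in every medium and were DE in any comparison. Circles are 10% FEx and squares 2.5% FEx, and dashed lines mark 1 and -1. CR44779 is highest at 1.51 in 10% FEx, asRNA:CR45126 is lowest at -1.81 and -1.93, and alphagamma-element:CR32865 lies on opposite sides of 0.

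The highest fitted log2 fold changes were in genes that met the rule in some media only, and their values are given as a description with no test. CR42715 (chr2R:14639361-14639762) lies 426 bases from Mtkl, a gene named for its likeness to the antimicrobial peptide Metchnikowin, and met the rule in 2.5% FEx only. It had 27, 23 and 23 counts in 10% FEx, 64, 59 and 58 counts in 2.5% FEx and 1, 0 and 1 counts in MB10. The ratio of pooled CPM was 33.3 in 10% FEx (exact 95% interval 8.89 to 280.0, for counting error only) and 85.0 in 2.5% FEx (23.2 to 707), on 2 counts in MB10. These intervals show how imprecise the ratios are. They do not test the difference, since the gene was admitted by its level in 2.5% FEx, and they leave out the spread between libraries. Mtkl had 2.13, 1.98 and 2.17 CPM in 10% FEx, 7.86, 9.91 and 10.2 CPM in 2.5% FEx and 0.151, 0.173 and 0.0902 CPM in MB10, with log2 fold changes of 3.87 ± 0.30 and 6.02 ± 0.23 (adjusted p = 6.5e-07 and 1.0e-09). For both genes 2.5% FEx was the highest medium and MB10 the lowest.

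CR44953 (chr3R:29755190-29759040), at 662 bases from yata, had 13.7, 13.7 and 13.2 CPM in 10% FEx, 3.89, 4.03 and 4.94 CPM in 2.5% FEx and 1.96, 1.94 and 2.07 CPM in MB10, with fitted log2 fold changes of 2.76 ± 0.12 in 10% FEx and 1.10 ± 0.14 in 2.5% FEx. CR43475 (chr3R:22628797-22629299), a single exon in an intron of loco, a regulator of G-protein signalling, had 10.6, 9.73 and 8.63 CPM in 10% FEx, 4.01, 4.98 and 4.36 CPM in 2.5% FEx and 1.66, 1.51 and 1.62 CPM in MB10 and fitted values of 2.60 ± 0.14 and 1.48 ± 0.15. In both genes 10% FEx was highest and no media overlapped, while yata had 0.29 ± 0.06 and 0.05 ± 0.06 and loco -0.03 ± 0.07 and -0.14 ± 0.07. CR32773 is spread over the region of bi, a T-box transcription factor gene, and had 2.41, 2.52 and 2.80 CPM in 10% FEx, 1.27, 1.56 and 1.78 CPM in 2.5% FEx and 0.503, 0.346 and 0.496 CPM in MB10, with 2.51 ± 0.22 and 1.78 ± 0.24. bi had 1.03, 1.08 and 0.675 CPM in 10% FEx, 1.65, 1.77 and 2.07 CPM in 2.5% FEx and 0.101, 0.0432 and 0 CPM in MB10, with 2.5% FEx highest where CR32773 was highest in 10% FEx.

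For the genes that follow, the paired values in parentheses are fitted log2 fold changes ± SE against MB10, in 10% FEx and then in 2.5% FEx. CR45564 had 4.89, 5.77 and 4.87 CPM in 10% FEx, 3.59, 4.11 and 4.85 CPM in 2.5% FEx and 1.31, 0.778 and 0.992 CPM in MB10 (2.34 ± 0.19 and 2.04 ± 0.20). CR44392, with 66.3% of its exon bases in exons of tweek on the same strand, had 5.49, 4.69 and 3.33 CPM in 10% FEx, 3.63, 3.41 and 3.24 CPM in 2.5% FEx and 1.61, 1.38 and 1.26 CPM in MB10 (1.69 ± 0.20 and 1.28 ± 0.21), and tweek had 0.89 ± 0.10 and 0.57 ± 0.10. For each of these the libraries of both FEx media lay above those of MB10. CR45614 had 1.95, 2.16 and 1.93 CPM in 10% FEx, 2.45, 2.39 and 3.07 CPM in 2.5% FEx and 1.16, 1.04 and 0.947 CPM in MB10 (0.94 ± 0.18 and 1.33 ± 0.18), and its neighbour CG15203, at 175 bases, had 0.78 ± 0.13 and 0.99 ± 0.13. CR45180 was highest in 10% FEx, with 2.44, 2.25 and 3.04 CPM in 10% FEx, 1.23, 1.56 and 1.54 CPM in 2.5% FEx and 1.16, 1.56 and 0.857 CPM in MB10 (1.10 ± 0.22 and 0.27 ± 0.24, and in 10% FEx 0.98 without its replicate 3 and 0.90 without MB10 replicate 3). CR44043, in an intron of l(2)41Ab, was highest in 2.5% FEx, with 0.957, 1.26 and 1.30 CPM in 10% FEx, 3.00, 3.74 and 4.07 CPM in 2.5% FEx and 1.51, 1.08 and 0.947 CPM in MB10 (-0.01 ± 0.24 and 1.62 ± 0.20), and l(2)41Ab had 1.01 ± 0.29 and 1.94 ± 0.25.

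Other genes of this kind had their highest levels in MB10. asRNA:CR46139 had 1.98, 1.85 and 1.59 CPM in 10% FEx, 2.49, 3.17 and 2.74 CPM in 2.5% FEx and 7.19, 4.84 and 5.95 CPM in MB10 (-1.71 ± 0.17 and -1.09 ± 0.16, and -0.93 in 2.5% FEx without MB10 replicate 1), and CG34112 on the other strand had -0.99 ± 0.16 and -1.09 ± 0.16. asRNA:CR42547 had 0.992, 1.31 and 1.35 CPM in 10% FEx, 1.35, 1.81 and 1.49 CPM in 2.5% FEx and 2.66, 2.94 and 2.62 CPM in MB10 (-1.19 ± 0.18 and -0.82 ± 0.17), and CG15674, opposite to it, had -1.43 ± 0.17 and -1.27 ± 0.16. In both pairs the fitted values of the antisense gene and of the coding gene were below 0 in each FEx medium. asRNA:CR45009, just inside the rule, had 20, 26 and 20 counts in 10% FEx, 17, 19 and 21 counts in 2.5% FEx and 43, 47 and 47 counts in MB10 (-1.17 ± 0.19 and -1.40 ± 0.20, and -0.97 in 10% FEx without its replicate 1), while FucTC on the other strand had 0 to 0.101 CPM. CR45735, which shares no exon bases with another gene, had 1.17, 1.40 and 0.964 CPM in 10% FEx, 1.14, 0.411 and 0.996 CPM in 2.5% FEx and 3.12, 3.63 and 2.71 CPM in MB10 (-1.42 ± 0.25 and -1.89 ± 0.27).

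**Figure D4:**
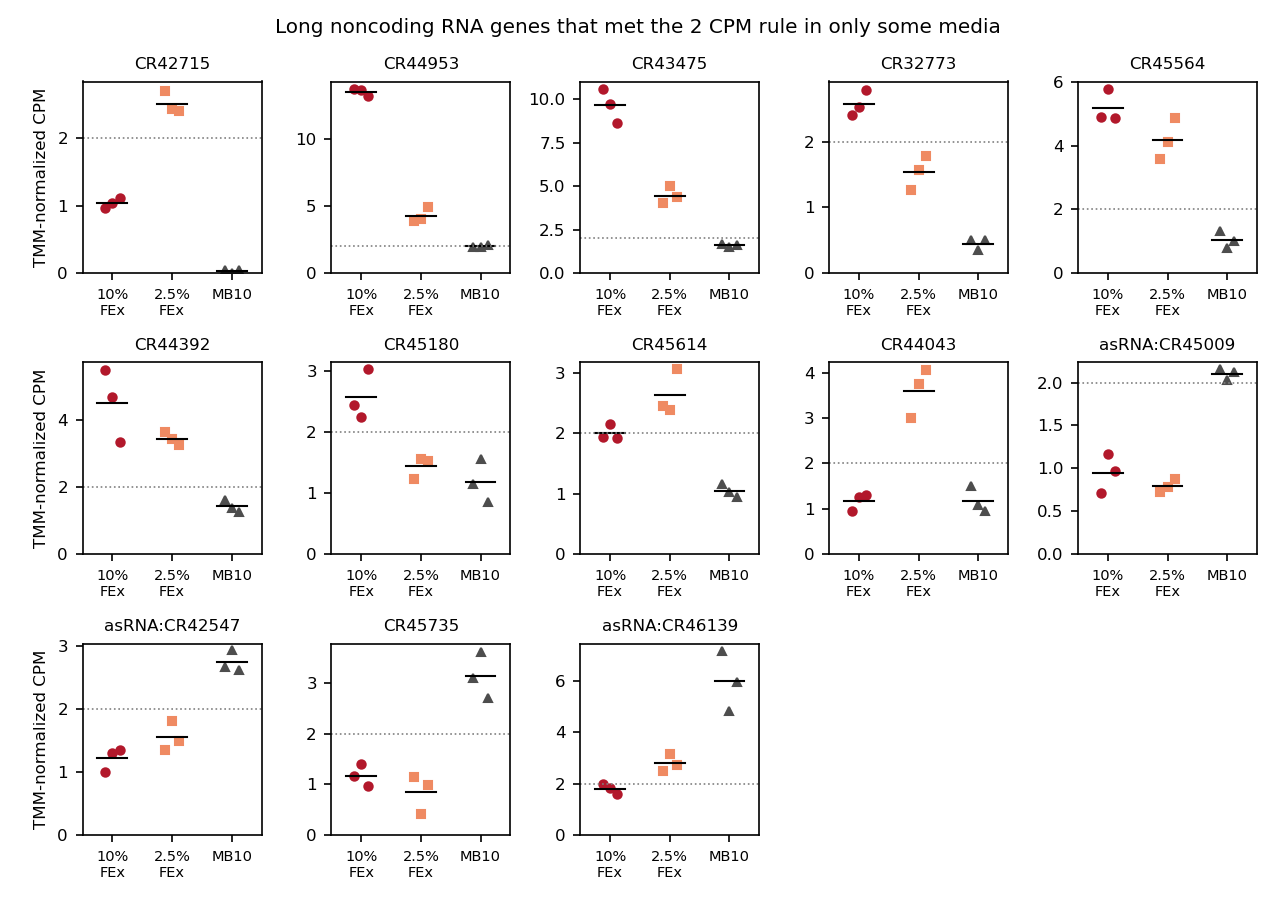
Level of 13 long noncoding RNA genes that met the rule in only some media, in TMM-normalized CPM, for the 3 libraries of each medium. Black lines are means and the dotted line marks 2 CPM. The first 8 panels and CR44043 are higher in 1 or both FEx media, such as CR44953 with 13.2 to 13.7 CPM in 10% FEx, 3.89 to 4.94 CPM in 2.5% FEx and 1.94 to 2.07 CPM in MB10, and the last 4 are highest in MB10.

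The position of the 149 genes is given beside that of all 2404 rows. The exons of 35 overlap exons of another gene on the same strand, of 102 such rows in all, and 52 others overlap only exons on the opposite strand, of 644. Another 18 lie in an intron, of 401, and 44 share no exon bases with another gene and lie in no intron, of 1257. A coding gene starts head to head within 1000 bases of 30 of them. The median exon length was 1244 bases, against 645 bases for the other rows, and 64 genes have a single exon. As a check of strand, rows at least 95% covered by exons of another gene at 5 RPKM or more were set against that gene. On the same strand the row had a median of 0.699 of the other gene's RPKM (9 rows, range 8.6e-04 to 1.94), and on the opposite strand 0.00349 (32 rows, at most 0.283). Read density thus followed the other gene on the same strand far more than on the opposite strand, with 7 of 9 and 3 of 32 rows over 0.1 of it.

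Fold changes of neighbours were set side by side for genes with a coding neighbour that was tested, by 4 kinds of neighbour. All values of a comparison come from the same libraries, so correlations across genes are a description. For 34 genes with same-strand exon overlap, Pearson's r with the overlapping gene was 0.70 in 10% FEx and 0.70 in 2.5% FEx (Spearman's rho 0.57 and 0.66), where reads can be shared. For 41 genes with opposite-strand overlap, r was 0.18 and 0.24 (rho 0.38 and 0.39). For 14 genes in introns, r was -0.08 and 0.39 (rho 0.02 and 0.19). For 40 genes of none of these kinds, against the nearest coding gene, r was 0.61 and 0.73 (rho 0.29 and 0.33), with CR42715 and CR32773 far from the rest. Of the 21 asRNA: genes lower in 10% FEx by the adjusted p, 19 have a tested gene that they overlap or adjoin, of which 10 were lower, 3 higher and 6 not called. Of all genes tested, 27.6% were lower and 25.5% higher. In 2.5% FEx 21 of 22 have one, of which 12 were lower, 2 higher and 7 not called, beside 22.2 and 22.0% of all genes tested lower and higher. The neighbour was the gene overlapped on the same strand where there was one, and reads of such a pair can be shared. Some of these asRNA: genes met the rule in only some media. The neighbours of the other asRNA: genes were not counted, and whether both fall together was not tested.

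**Figure D5:**
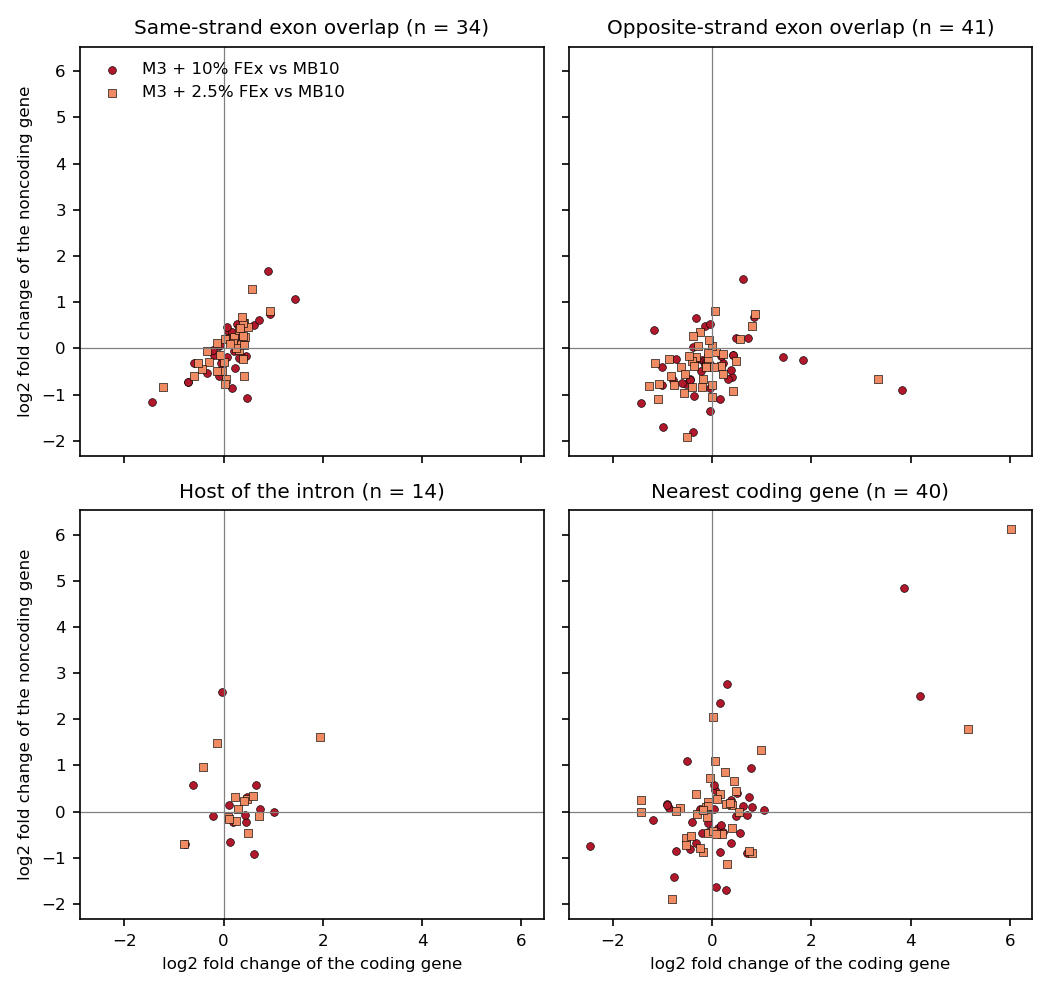
Log2 fold change against MB10 of each long noncoding RNA gene (vertical) and of its coding neighbour (horizontal), for genes with same-strand exon overlap (n = 34), opposite-strand overlap (n = 41), in an intron (n = 14) or of none of these kinds (n = 40). Circles are 10% FEx and squares 2.5% FEx. Points of the same-strand panel run along a rising diagonal (r = 0.70 in both), those of the opposite-strand panel scatter, and CR42715 with Mtkl is the pair at the upper right of the last panel.

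In all, 10 of the genes hold small RNA genes. Besides those above, CR43836 holds mir-31b, asRNA:CR46194 mir-281-1 and mir-281-2, CR31044 mir-279 and mir-996, CR44206 mir-184 and CR43857 mir-275, and they were grouped after the values were seen. CR43836 had 11.7, 12.6 and 11.3 CPM in 10% FEx, 9.25, 8.64 and 7.80 CPM in 2.5% FEx and 8.09, 5.79 and 7.58 CPM in MB10, higher in 10% FEx (0.74 ± 0.13, adjusted p = 4.0e-04), with CG10962, which shares 29.3% of its exon bases, at 0.94. CR44206, asRNA:CR46194 and CR31044 were at 2.80 to 5.10 CPM in all libraries and passed the test in neither comparison. CR43857 met the rule in both FEx media only, with 2.87, 3.60 and 2.80 CPM in 10% FEx, 2.66, 4.15 and 3.40 CPM in 2.5% FEx and 2.46, 2.33 and 1.44 CPM in MB10. Of the 9 that met the rule in every medium, 3 were higher in 10% FEx and 2 in 2.5% FEx by the adjusted p, beside 25.5 and 22.0% of all genes tested, and 0 were lower, beside 27.6 and 22.2%.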

How the data were processed

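S2R+ RNA was sequenced in 9 libraries, 3 each of M3 + 10% FEx, M3 + 2.5% FEx and MB10. The authors trimmed reads with Trimmomatic 0.36, mapped them with HISAT2 2.1.0 to release 6.30 of the D. melanogaster genome, counted them per gene with featureCounts 1.6.4 and deposited raw counts, which are not normalized. Settings for strand, multi-mapping and overlapping genes are not given in the sources used here.

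CPM of the rule is a count over its library total. Of 17562 rows, 17476 matched a symbol, and the rest stayed in the totals and tests. Counts were normalized by TMM and tested in edgeR 4.0.16 (R 4.3.3) with filterByExpr and the quasi-likelihood F test in 1 model of all 9 libraries, over 8705 genes, with Benjamini-Hochberg adjustment within each comparison. The SE is the log2 fold change over the square root of F. The fit was tested on simulated data. RPKM is TMM-normalized CPM per 1000 bases of exon in the Ensembl BDGP6.54 annotation, which also gave positions and neighbours, and which is later than the authors' annotation. RPKM is not a deposited value.

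Genes named are the 8 highest and 8 lowest DE genes without overlap of libraries in each comparison with MB10, the 4 highest and 4 lowest between the FEx media, the 8 highest by CPM and 5 by RPKM, those on a list of characterised RNAs, and those at the rule's edge. The genes and lists were chosen with earlier results of these data known, and others named are said to be chosen after their values were seen. Alternatives were DESeq2 1.42.0, its size factors, other filters and level rules, 6 libraries only, a replicate block, each library left out, and members without overlapping exons, of which that for same-strand overlap was added after seeing the data. No sequences are shown.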

Additional observations from a re-analysis of the deposited data

Results flagged for a closer look

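The effects of the FEx media, each against the same MB10 libraries, were set against each other in the direct comparison of 10% FEx with 2.5% FEx. Of the genes that met the rule in every medium, 2 differed by its test (edgeR, log2 fold change beyond 1): alphagamma-element:CR32865 had -1.60 (adjusted p = 3.4e-06), with opposite signs against MB10, and asRNA:CR44030 had -1.04 (adjusted p = 3.2e-04). Reads of alphagamma-element:CR32865 may be split between repeated copies. Another 4 genes past the same threshold met the rule in some media only and entered through the medium where they were high, so that their log2 fold changes are a description with no test: -1.64 for CR44043, -1.28 for CR42715, 1.12 for CR43475 and 1.66 for CR44953. Whether the difference comes from the level of FEx or from the further adaptation of the line in 2.5% FEx cannot be told apart.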

How the results depend on the processing

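The number of genes called depended on the fold threshold and on how many genes were admitted, and not on the tool. DESeq2 and the replicate block each called all 21, 16 and 6 DE genes (10% FEx vs MB10, 2.5% FEx vs MB10 and 10% FEx vs 2.5% FEx) and no others. Leaving out each library gave 20 to 22, 15 to 16 and 6 to 7. With no fold threshold 82, 74 and 38 of the same 149 genes were called, and with a minimum of 1 CPM 41, 27 and 13 of 230 genes were DE. With a minimum of 5 CPM the first 2 counts were 11 and 7 of 89 genes, and with 2 CPM in all 9 libraries they were 9, 5 and 2 of 116. Without exon overlap on either strand the first 2 counts were 9 and 10 of 62 genes, and the share of higher calls was 6 of 9 and 8 of 10. DE calls over all genes tested were also more often higher, 7.34 against 3.63% in 10% FEx and 5.59 against 2.93% in 2.5% FEx. Without overlap on the same strand, an alternative chosen after seeing the data, the counts of DE genes were 17, 14 and 6 of 114. The number of genes in the set was 230 at 1 CPM, 89 at 5 CPM and 149 to 158 with each library left out, highest without MB10 replicate 3, and 70 met a minimum of 5 CPM in every medium. Of 57 named log2 fold changes, 45 had an adjusted p under 0.05, and 43 of these kept direction and the adjusted p under 0.05 under every alternative run. Many of these values were named because the gene was DE without overlap of libraries. Some belong to genes that met the rule in only some media. The count is therefore a description and no measure of how firm the calls are. The DE call, which also needs a log2 fold change beyond 1, was lost with at least 1 library left out by 6 of the 21 genes in 10% FEx, 4 of the 16 in 2.5% FEx and 0 of the 6 between the FEx media, in each case by the fold and not by the adjusted p (at most 0.0068). Of these, asRNA:CR43730 is named for this alone (-1.15 in 10% FEx, and -0.97 without its replicate 1). Of the named values, only that of acal in 2.5% FEx changed sign, at -0.10 without MB10 replicate 3 (adjusted p = 0.70), and with each library left out it ran up to 0.56, without MB10 replicate 2. Replicate numbers did not pair the samples: the mean correlation of deviations of same-numbered libraries was 0.034, -0.396 and 0.054, and the block changed no call of a DE gene. The cause of these changes was not tested beyond the number of genes admitted. Depth limits genes at a few counts, such as CR42715, and genes that share exon bases on 1 strand cannot be separated.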
